A study of Mus musculus with 27 samples.

Results

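The members described here are the long non-coding RNAs of the NONCODE collection that lie inside introns of protein-coding genes. The rule reads position and no expression value, although the members were chosen with earlier results of these data known. A NONCODE feature of the annotation deposited with the series was taken where its span overlapped the span of at least 1 coding gene. None of its exons could overlap a coding exon on either strand, and 1 NONCODE feature is left out and not reported here. The rule gave 11444 members among 36991 NONCODE features and 57683 counted features in all. Of the other NONCODE features, 13401 overlapped a coding exon and 12146 lay outside all coding spans. The coding gene with the largest overlap is called the host, and the members had 4403 hosts. Equal overlaps were settled by the order of gene identifiers. Since 265 members overlapped 2 or more coding spans, a gene other than the host can also overlap such a member.

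Polyadenylated RNA was sequenced from single hearts of the inbred mouse strain C57BL/6J in 5 groups. At embryonic day E13.5, 7 whole hearts of unknown sex were taken; every embryonic title gives this day and was followed, although the separate age label climbs from one embryo to the next. The adult material was the ventricular apex: 6 unoperated hearts at 6 weeks of age, 6 unoperated hearts at 16 weeks, 4 hearts of sham-operated mice at 12 weeks and 4 hearts at 12 weeks after 4 weeks of transverse aortic constriction (TAC), an operation that narrows the aorta and raises the pressure the left ventricle works against. All adults carried a male label except 1 TAC mouse labelled female. A whole heart includes the atria and the apex does not, so age and the part of the heart cannot be told apart.

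An intron is transcribed with its gene and then removed by splicing, and most of it is degraded in the nucleus. Long non-coding RNAs annotated inside introns include transcripts with their own start, on either strand, and some are known to act on nearby genes. The libraries were selected with oligo(dT) and did not mark the strand, so reads of a member and reads of the host's unspliced RNA cannot be told apart.

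Promoters of 4 hosts are shown because results below turn on their members: Mylk4 (a myosin light chain kinase family member of striated muscle) and Mgll (monoglyceride lipase) as hosts whose members were low in the embryo, Kcnq5 (a voltage-gated potassium channel) as the host of a member detected almost only in the embryo, and Slc8a1 (the sodium-calcium exchanger of the heart) as a host whose members changed more than the host did. Each run holds 250 bases before and 50 bases after an annotated start, from RefSeq on build GRCm38.p6, which is not the build of the members' coordinates. Capitals mark a match to 1 of the 4 motifs searched on both strands.
Mylk4, chr13:32783915-32784214, minus strand: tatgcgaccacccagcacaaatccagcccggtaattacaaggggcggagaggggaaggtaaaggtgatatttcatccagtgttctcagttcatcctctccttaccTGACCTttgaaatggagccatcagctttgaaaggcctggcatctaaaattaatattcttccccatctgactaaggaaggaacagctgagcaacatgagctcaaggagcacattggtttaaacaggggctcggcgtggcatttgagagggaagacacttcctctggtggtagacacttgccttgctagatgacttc
Mgll, chr6:88724162-88724461, plus strand: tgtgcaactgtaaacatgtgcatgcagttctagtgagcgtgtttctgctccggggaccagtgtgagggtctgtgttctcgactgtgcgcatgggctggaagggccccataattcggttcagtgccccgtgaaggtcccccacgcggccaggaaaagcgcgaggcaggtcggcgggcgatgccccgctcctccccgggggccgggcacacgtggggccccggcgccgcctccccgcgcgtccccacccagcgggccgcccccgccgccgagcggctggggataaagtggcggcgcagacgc
Kcnq5, chr1:21962601-21962900, minus strand: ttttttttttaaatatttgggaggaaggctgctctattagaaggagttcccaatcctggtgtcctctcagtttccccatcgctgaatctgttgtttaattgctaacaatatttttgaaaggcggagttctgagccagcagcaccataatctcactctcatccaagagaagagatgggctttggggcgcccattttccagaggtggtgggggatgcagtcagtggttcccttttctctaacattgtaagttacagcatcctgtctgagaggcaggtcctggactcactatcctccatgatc
Slc8a1, chr17:81738338-81738637, minus strand: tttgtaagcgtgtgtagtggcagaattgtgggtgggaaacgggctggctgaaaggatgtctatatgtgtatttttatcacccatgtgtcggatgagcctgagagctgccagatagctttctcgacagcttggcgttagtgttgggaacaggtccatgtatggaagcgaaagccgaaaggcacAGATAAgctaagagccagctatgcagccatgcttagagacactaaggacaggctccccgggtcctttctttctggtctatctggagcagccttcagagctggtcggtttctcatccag
The motifs were the letters TATAAA of a TATA box, AGATAA for factors of the GATA family, CATTCC for TEAD factors and AGGTCA, the half-site of nuclear receptors. The Mylk4 window held the half-site, which 16.3% of 32851 promoters of this length hold on either strand, and the Slc8a1 window held the GATA letters, which 11.2% hold. TATAAA was found in 13.6% of these promoters and CATTCC in 14.7%. The Mgll and Kcnq5 windows matched none of the 4. For each of these genes 1 of 2 listed promoters is shown, and the other is not described here. In all, 3097 of 4399 host symbols were in the promoter table.

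Libraries held 7543375 to 12646039 counts (E13.5), 2092270 to 2682955 (6 weeks), 2164604 to 2642307 (16 weeks), 7958592 to 11561952 (sham) and 10411417 to 11846819 (TAC). The unoperated adult libraries therefore had lower depth, and by the labels another base quality encoding, than all the others, which cannot be told apart from their group. Of 20 adult libraries, 8 went against their sex label by the counts of 4 Y-linked genes (2 in each adult group). The summed levels and the counts of called members are also given without them, and named calls that were then lost are listed. All 6 cardiomyocyte markers searched were detected in every group, summing to 16440 to 22065 CPM (counts scaled to the size of the library) at E13.5 and 90345 to 159502 in adults, and the atrial gene Sln was listed at 0 throughout. The labels name separate hearts, so p-values measure the spread between these animals. In bulk tissue, fewer cells of a type and less RNA per cell cannot be told apart.

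Most members were single exons within one intron on the host's strand. In the deposited annotation 10786 members lay inside 1 intron, 2733 of them in the first, while 180 spanned several introns, 345 reached past the host and 133 contained it. The strand was that of the host for 9515 (83.1%) and the other for 1929. A single exon made up 8765 members (76.6%), or 83.7% of those on the host's strand and 41.3% of those on the other. The median exonic length was 1985 bases (31 to 52403), and the median distance to the nearest coding exon was 4803 bases (1 to 361132). The hosts with most members were the neuronal adhesion genes Nrxn3 and Cntnap2 with 41 and 37 members, and Pde4d (a cyclic AMP phosphodiesterase) held 36. A host had 1 member in 2253 cases and 10 or more in 158, so many members share a host.

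Levels were low. A count was found in any library for 9600 members, and 1844 had none, of which 666 have no exonic base outside other features. A group mean of at least 1 CPM was reached by 1680 members at E13.5, 1383 at 6 weeks, 1185 at 16 weeks, 1442 in sham and 797 in TAC hearts, and at least 100 CPM by 4 or 5 in each group. The highest member, n264818, has 4 exons over 406 bases. It lies on the strand opposite Parp9 (an ADP-ribosyltransferase family gene of the interferon response) at mm9 chr16:35966838-35983316 and reaches past it. Its mean level per length, 6234 CPM per kilobase, was the highest of the members. In CPM it lay between 757 and 1590 at E13.5 (median 1042), between 3008 and 5591 at 6 weeks (4453) and between 3235 and 3891 at 16 weeks (3643), and stood at 2079, 3508, 1559 and 1927 in sham and 1157, 1566, 968 and 1184 in TAC libraries. The embryonic values lay below those of all unoperated adults (log2 fold change -1.96 ± 0.15 SE, adjusted p = 2.24e-10, edgeR's quasi-likelihood test with Benjamini-Hochberg adjustment, used for every change below).

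The second highest, n265082, is a single exon in intron 23 of 26 of Zc3h7a (a zinc finger gene) on the other strand, at chr16:11143998-11144408, with 2772 CPM per kilobase. It lay between 388 and 1523 CPM at E13.5 (median 664), between 115 and 450 at 6 weeks (227) and between 501 and 821 at 16 weeks (669), and stood at 2231, 1790, 2408 and 2270 in sham and 1898, 1934, 1784 and 1746 in TAC libraries. The sham values lay above those of every embryonic library and the 6-week values lay mostly below, so the change at E13.5 was higher against unoperated adults (0.78 ± 0.29, adjusted p = 0.0186) and lower against sham (-1.68 ± 0.31, adjusted p = 0.000632). The first of these was not called without E13.5 replicate 2 (0.53, adjusted p = 0.0735) or against 16 weeks alone (0.03, adjusted p = 0.919). Next per length came n282404 over several introns of Casc1 with 218 CPM per kilobase and n413824 in Zbtb20, a transcriptional repressor gene, with 154.1. The 2 highest members are left out of the summed levels that follow.

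Summed over the other 11442 members, the mean level was highest at E13.5 and lowest after TAC. It was 9986 ± 462 CPM at E13.5 (SD, n = 7), 6296 ± 298 at 6 weeks (n = 6), 5366 ± 479 at 16 weeks (n = 6), 5593 ± 181 in sham (n = 4) and 3535 ± 177 in TAC hearts (n = 4). The embryonic libraries (9174 to 10396) and the TAC libraries (3321 to 3722) overlapped no other group, while those at 16 weeks (4840 to 6131) overlapped those at 6 weeks and in sham. Without the libraries against their sex label the means were 6353, 5489, 5544 and 3395 in the adult groups. With the 2 highest members included the sums were 12533 ± 731, 10845 ± 1053, 9419 ± 690, 9401 ± 769 and 5960 ± 50.2. NONCODE features that overlap a coding exon had the same highest and lowest group, with 11177 ± 230 at E13.5, 7514 ± 279 in sham and 6270 ± 46.2 in TAC hearts. Those outside coding spans did not have the same highest group. They summed to 22216 ± 5852 at E13.5, 38860 ± 8140 at 6 weeks and 45224 ± 3740 at 16 weeks. In sham and TAC hearts they reached 20387 ± 2170 and 19561 ± 2471, with overlap. The host genes together summed to 219147 ± 4937 in sham and 216244 ± 5858 in TAC hearts, and to 302915 ± 5772 at E13.5.

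**Figure D1:**
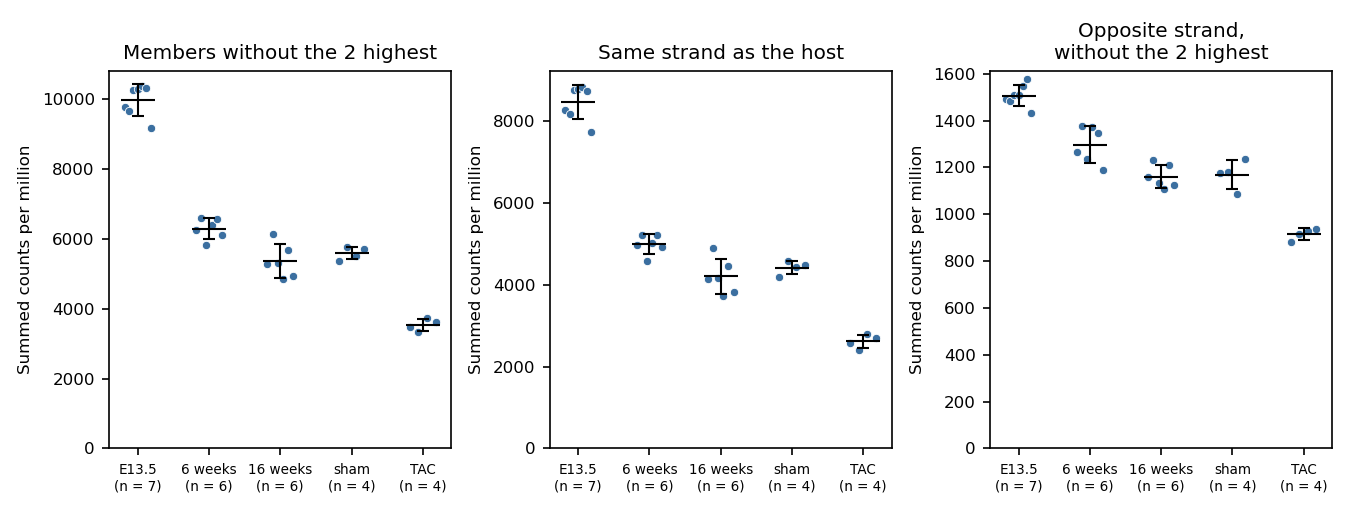
Summed CPM in each library (points), with the mean and SD of each group (bar and whiskers), for members without the 2 highest, for those on the host's strand and for those on the opposite strand. The 4 TAC libraries sit at 3321 to 3722 in the first panel, below all others, and the 7 embryonic libraries at 9174 to 10396, above all others; on the opposite strand TAC hearts reach 916 ± 24.0 against 1169 ± 61.4 in sham.

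Between E13.5 and the mean of both unoperated adult ages, 440 members passed the filter on low counts, and 230 rose and 117 fell at E13.5, where 44.1% and 39.7% of all 12766 features tested rose and fell. Their median log2 change was 0.50, against 0.07 over all features. Against sham hearts, whose depth was similar, 2394 members passed; 1011 rose and 490 fell, beside 40.7% and 35.6% of 18677 features, with a median of 0.51 against 0.12. With the embryonic libraries thinned to the depth of the unoperated adults, 174 of 381 rose and 110 fell against these (median 0.37). By level against unoperated adults, 18 of 18 members under 2 CPM rose, 149 of 268 at 2 to 5 CPM rose and 51 fell, and 63 of 154 at 5 CPM or more rose and 66 fell, with a median of -0.1. Members under 2 CPM could pass the filter almost only through a group where they were high, so the direction of those 18 is no result. Among other NONCODE features 267 of 609 that overlap a coding exon rose against unoperated adults and 204 fell (median 0.21), as did 183 and 203 of 503 outside coding spans (-0.05). Against sham 41.3% of 2009 that overlap a coding exon rose and 451 fell (0.40), as did 505 and 391 of 1265 outside coding spans (0.22). These comparisons share the embryonic libraries, and a member that is present in only 1 group passes the filter because of that group. The groups did not overlap for 41.6% of members against unoperated adults and 47.5% against sham, beside 55.7% and 64.4% of all features. Groups without overlap were a condition for naming the largest changes below, so that trait is no result there. On the host's strand 207 of 377 rose against unoperated adults and 91 fell (median 0.54), while on the other strand 23 of 63 rose and 26 fell (median 0.09).

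Some members were almost absent from adult hearts. n280030 (chr1:21934139-21941987) lies in intron 1 of 18 of Kcnq5, of which 1 promoter is shown above. It lay between 3.50 and 4.99 CPM at E13.5 (median 4.17, 387 counts in all), had no count in any unoperated adult library and 1 count in sham. It was thus at least 55.3-fold higher than in unoperated adults, taken at a floor of 3 counts for the whole group, and 228-fold higher than in sham (95% interval of counting error 40.9 to 8989). Kcnq5 itself was higher by 3.52 ± 0.15 on the log2 scale.

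n275335 (chr8:105271112-105274594), in intron 1 of 12 of the mesenchymal cadherin gene Cdh11, lay between 4.39 and 5.70 CPM at E13.5 (median 5.14, 463 counts). Unoperated adults held 3 counts of it, a ratio of 66.2 (95% interval 22.7 to 321), and sham hearts none, at least 90.8-fold. Its host rose by 4.68 ± 0.13. n289231 in Meis2, a homeobox gene of heart development, lay between 4.64 and 6.54 CPM at E13.5 (median 5.69), between 0 and 2.64 at 6 weeks (0.598) and between 0 and 1.84 at 16 weeks (0.438), with no overlap. It rose by 2.56 ± 0.31 (adjusted p = 8.54e-09) and its host by 1.46 ± 0.07.

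Other members rose against their host or by more than it did. n294395 (chr2:14624779-14626344) in intron 3 of 19 of Cacnb2, the regulatory beta subunit of the L-type calcium channel, lay between 4.21 and 6.36 CPM at E13.5 (median 5.14), between 0 and 0.956 at 6 weeks (0.189) and between 0 and 0.943 at 16 weeks (0.434), and stood at 0.111, 0.573, 0.457 and 0 in sham libraries. Every embryonic library lay above every adult one, with a change of 3.79 ± 0.32 (adjusted p = 5.85e-12), while Cacnb2 fell by 1.31 ± 0.07. The change of the member relative to its host was 4.47 ± 0.35 (adjusted p = 2.14e-12, limma with Benjamini-Hochberg adjustment, on the log2 ratio of member to host).

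n278051 (chr6:116121634-116124331) in intron 1 of 7 of Tmcc1, a gene of the endoplasmic reticulum membrane, lay between 32.6 and 45.0 CPM at E13.5 (median 38.8), between 3.02 and 5.67 at 6 weeks (3.65) and between 1.89 and 4.44 at 16 weeks (3.50). It rose by 3.26 ± 0.12 (adjusted p = 6.06e-21) without overlap, and Tmcc1 fell by 0.69 ± 0.07. n279722 (chr8:109963030-109963479) in intron 1 of 23 of Wwp2, a ubiquitin ligase gene, was among the most abundant per length, with 103.7 CPM per kilobase. It lay between 113 and 173 CPM at E13.5 (median 132), between 1.58 and 6.80 at 6 weeks (5.86) and between 3.38 and 8.49 at 16 weeks (6.34), and stood at 38.6, 31.7, 45.5 and 39.1 in sham libraries. The embryonic values lay above all adult ones, by 4.45 ± 0.13 against unoperated adults (adjusted p = 1.34e-21) and by 1.63 ± 0.12 against sham (adjusted p = 1.02e-09), and the host changed by 0.45 ± 0.11 and 0.04 ± 0.13.

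Other members were nearly absent from the embryonic heart. n295438 (chr13:32817719-32818841) in intron 4 of 13 of Mylk4, whose promoter is shown above, had 1 count in the 7 embryonic libraries. It lay between 5.94 and 14 CPM at 6 weeks (median 10.9) and between 5.92 and 13.0 at 16 weeks (7.30), and stood at 15.5, 20.4, 17.4 and 17.2 in sham libraries. The adult level was 620-fold higher than the embryonic one (95% interval 111 to 24501), and in sham hearts 1024-fold (184 to 40433). Its host held 12 counts at E13.5 and 4607 in sham.

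n416530 (chr10:32942150-32976163), with 3 exons on the strand opposite Trdn (triadin, a protein of the calcium release complex), lay between 0 and 0.635 CPM at E13.5 (median 0.321), between 39.2 and 48.3 at 6 weeks (41.8) and between 35.9 and 56.4 at 16 weeks (46.5). It was lower at E13.5 by 7.06 on the log2 scale (-7.06 ± 0.19, adjusted p = 1.23e-24), and Trdn changed by -1.86 ± 0.13. n269799 (chr14:29842711-29846828) lies opposite Cacna2d3, an auxiliary calcium channel subunit gene, in intron 27 of 37. It lay between 1.19 and 1.57 CPM at E13.5 (median 1.45), between 137 and 223 at 6 weeks (156) and between 121 and 171 at 16 weeks (145), a change of -6.94 ± 0.12 (adjusted p = 1.5e-28), while no Cacna2d3 library exceeded 1.44 CPM and the host was below the filter.

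n281223 (chr11:12214516-12237133), with 5 exons opposite Cobl (an actin nucleator), and n280819 (chr7:140939282-140944721), with 2 exons opposite the helicase gene Dhx32, were also near 0 in the embryo. n281223 lay between 0 and 0.198 CPM at E13.5 (median 0.0705), between 7.56 and 16.2 at 6 weeks (13.0) and between 8.72 and 13.8 at 16 weeks (10.5). It changed by -7.23 ± 0.30 (adjusted p = 1.06e-19) while Cobl rose by 1.24 ± 0.16. n280819 lay between 0.0705 and 0.344 CPM at E13.5, between 12.1 and 45.8 at 6 weeks and between 28.4 and 59.1 at 16 weeks, a change of -7.73 ± 0.33 (adjusted p = 2.82e-15) beside -1.23 ± 0.07 for Dhx32. For each of these spliced members on the opposite strand, no embryonic library reached the lowest adult one.

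**Figure D2:**
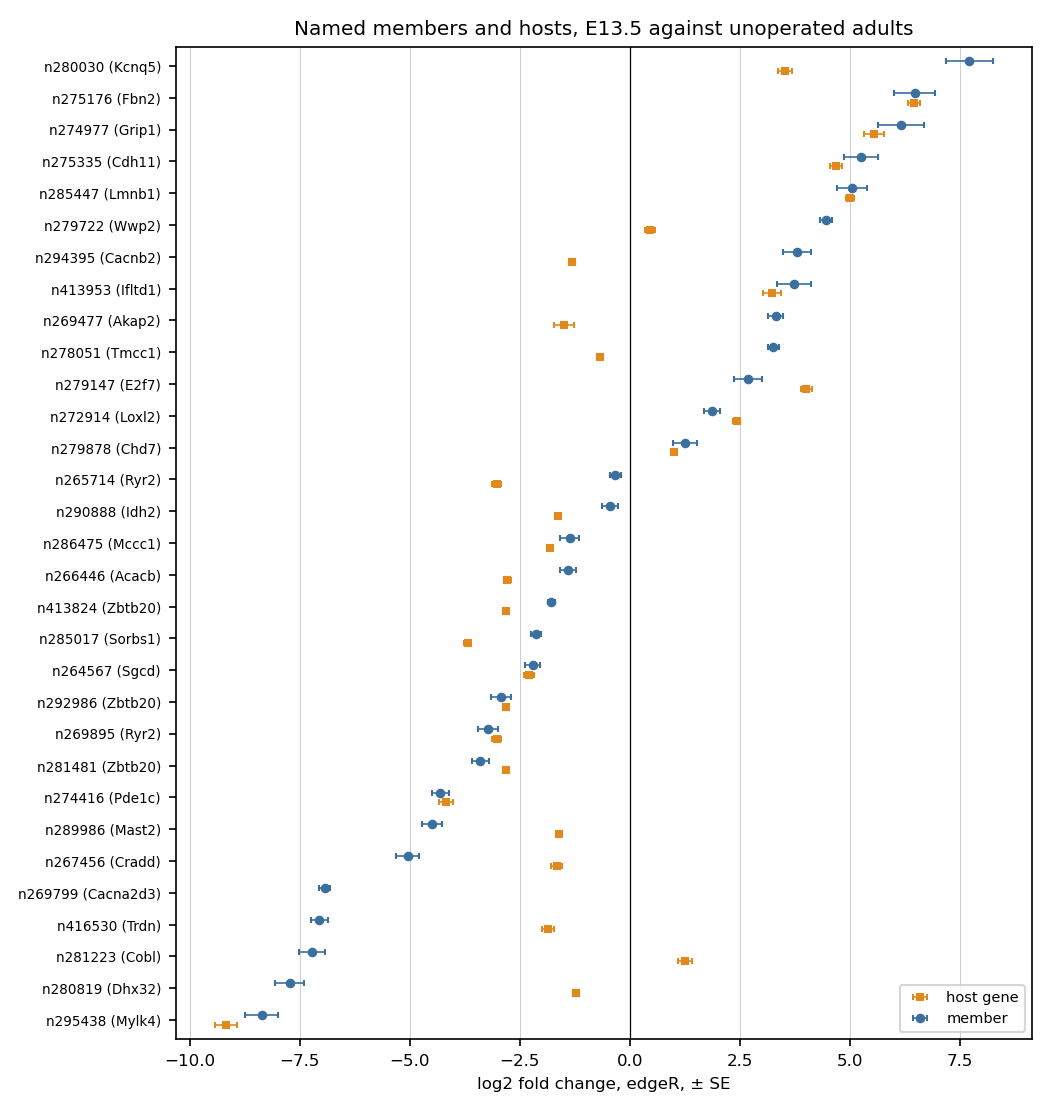
Log2 fold change at E13.5 against unoperated adults for the named members (circles) and their hosts (squares), with SE; values right of 0 are higher in the embryo. Members such as n294395 (3.79 ± 0.32) and n278051 (3.26 ± 0.12) stand on the other side of 0 from their hosts, and the fitted values of members with 3 or fewer counts in a group, such as n295438 and n280030, are not bounds.

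Members of one host shared its direction in some genes and departed from it in others. Slc8a1 had 14 members tested against sham, of which 11 rose and 1 fell (-0.78 to 4.91, median 2.25), while the host changed by 0.34 ± 0.08. One of them, n277528 (chr17:81898931-81901144) in intron 1 of 14, lay between 13.8 and 21.3 CPM at E13.5 (median 18.5), stood at 0.888, 1.61, 1.22 and 1.22 in sham libraries and rose by 3.66 ± 0.20 (adjusted p = 1.07e-12), with no overlap. Prkg1, a cyclic GMP-dependent kinase gene, had 9 tested and 9 higher (1.52 to 2.29) with a host change of 0.17 ± 0.11 (adjusted p = 0.171). In Mgll all 4 tested were lower (-4.58 to -3.07), beside -4.12 ± 0.07 for the host.

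A departure from the assigned host was seen for Fgfr2, the receptor for fibroblast growth factors. Its member n266449 (chr7:137778727-137779901) in intron 3 of 23 lay between 0 and 0.484 CPM at E13.5 (median 0.175) and stood at 7.10, 2.64, 4.26 and 6.49 in sham libraries, so it changed by -4.54 ± 0.40 (adjusted p = 7.71e-09). Fgfr2 itself lay between 27.6 and 35.5 CPM at E13.5, was at most 0.333 in sham and rose by 6.78 ± 0.21. Of 8 Fgfr2 members tested, 1 rose and 4 fell. Members that overlap 2 or more coding spans were counted over the whole set only (265). Which Fgfr2 members are among them is not given here, so the contrast with Fgfr2 holds for the assigned host only.

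Relative to their hosts, 190 of 419 members rose against unoperated adults and 45 fell, beside 40.0% and 14.5% of the 950 NONCODE features with a tested host, which include the members. Against sham 984 of 2343 rose and 393 fell, beside 40.4% and 16.7% of 4180. Of the 230 members higher against unoperated adults, 136 had a host that also rose, 49 a host that fell, 38 a host that was not called and 7 an untested one. Of the 117 lower, 93 had a host that fell and 10 one that rose. Across 419 member and host pairs the log2 changes had a Pearson correlation of 0.68, and across 2343 pairs against sham 0.72; the pairs share libraries, and 331 and 1497 hosts served them.

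A member of Ryr2, the calcium release channel of the sarcoplasmic reticulum, changed less than its host. n265714 (chr13:12139608-12144322), with 9 exons in intron 1 of 104, lay between 51.6 and 65.4 CPM at E13.5 (median 62.3), between 46.5 and 97.0 at 6 weeks (87.7) and between 38.3 and 81.3 at 16 weeks (59.7), and these ranges overlapped. It changed by -0.33 ± 0.12 (adjusted p = 0.0186), Ryr2 by -3.03 ± 0.10, and the ratio to the host rose by 2.73 ± 0.12 (adjusted p = 8.15e-19).

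Against sham, 42.2% of all members tested rose at E13.5 and 20.5% fell, and the lists of hosts by role are read beside these shares. Hosts are counted over each whole list, also where no member was tested. In matrix and adhesion genes 34 of 42 members rose and 2 fell (median 2.71, also with the 8 that had no count in one group at their bound), beside 30 and 14 of 49 hosts. Those 8 passed the filter only through the other group, so their direction was fixed by it. Relative to their hosts 11 of 41 matrix members rose and 24 fell (median -0.84), beside 42.0% and 16.8% of all members. In heart development and transcription factor genes 50 of 100 members rose and 24 fell, beside 27 and 15 of 49 hosts, and in channel and calcium handling genes 26 of 63 rose and 25 fell, beside 10 and 20 of 34 hosts. In contraction and Z disc genes 7 of 21 rose and 12 fell, beside 3 and 15 of 18 hosts, and in energy metabolism genes 1 of 13 rose and 9 fell, beside 1 and 19 of 21 hosts. Of 14 in cell cycle and chromatin genes 7 rose and 3 fell, beside 20 and 6 of 32 hosts. Markers of other cells moved in part with the same groups. Against unoperated adults 4 of 7 fibroblast markers were higher at E13.5 and 3 lower. Of 5 endothelial markers tested 2 were higher and 2 lower, and of 2 neural markers tested 1 was lower. The 10 erythroid genes summed to 15317 to 56730 CPM at E13.5 and 302 to 1429 in adults, and the 5 epicardial genes to 223 to 295 and 7.12 to 38.3. The 8 atrial markers summed to 2801 to 3792 at E13.5 and 241 to 1457 in unoperated adults (5 of 7 tested higher, 1 lower). The 4 smooth muscle markers summed to 1287 to 1654 and 232 to 919 (3 of 4 higher, 1 lower). The 6 macrophage markers found summed to 113 to 140 and 181 to 324 (6 of 6 lower). The part of these in the members' change was not tested.

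**Figure D3:**
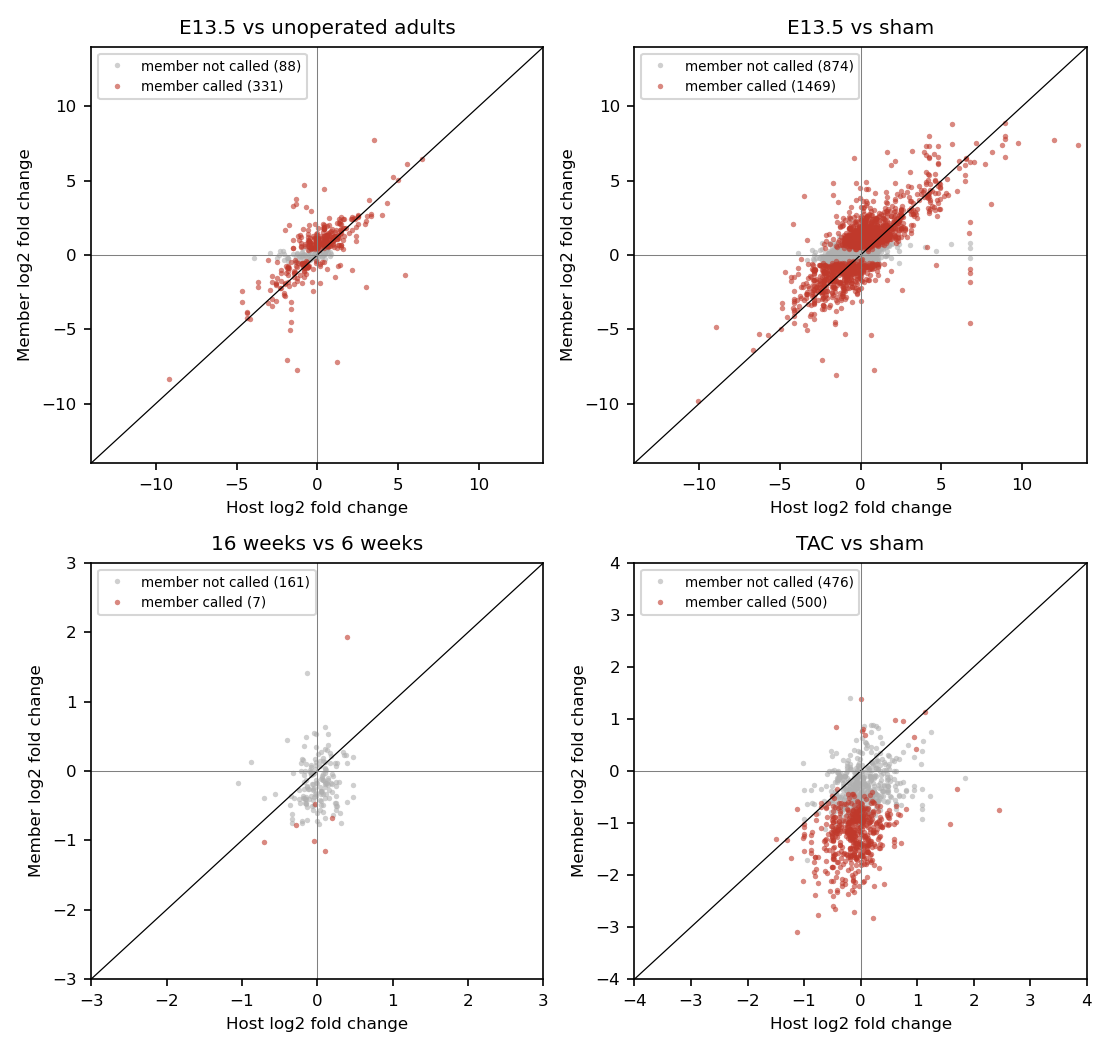
Log2 fold change of each tested member against that of its host in the 4 comparisons; red points are members called at an adjusted p under 0.05, and the line marks equal change. The Pearson correlation is 0.68 and 0.72 in the embryonic comparisons, 0.16 between 16 and 6 weeks and 0.32 for TAC, where red points lie mostly below 0 at all host values.

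Between 16 and 6 weeks of age few members were called. Of 182 tested, 1 rose and 6 fell at 16 weeks, beside 1.32% and 1.19% of 10394 features, with a median of -0.19 against -0.01. n265259 (chr11:5906264-5908331), opposite the calmodulin-dependent kinase gene Camk2b, lay between 0 and 6.21 CPM at 6 weeks (median 1.63) and between 4.45 and 8.57 at 16 weeks (7.91) and rose by 1.93 ± 0.49 (adjusted p = 0.047), although the 6-week maximum lay within the 16-week range. Its call was lost in 12 of 19 refits, among them each that left out 1 library other than 6-week replicate 6. n269347 (chr8:86110218-86112165), opposite Tecr (an enzyme of very long fatty acid synthesis), lay between 83.1 and 120 CPM at 6 weeks (median 107) and between 55.5 and 93.0 at 16 weeks (80.3), with overlap, and changed by -0.48 ± 0.11 (adjusted p = 0.022; not called in 4 of 19 refits).

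The other 5 that fell lay in Nexn (nexilin of the Z disc), Slc8a1, Sgcd (delta-sarcoglycan), 1810013L24Rik and Myh7 (the slow myosin heavy chain). n293767 in Nexn lay between 10.2 and 20.6 CPM at 6 weeks (median 11.8) and between 3.11 and 9.72 at 16 weeks (6.5) without overlap, a change of -1.02 ± 0.24 (adjusted p = 0.0265); it lies 5 bases from a coding exon, and Nexn changed by -0.70 ± 0.35 (adjusted p = 0.349). n289141 in Slc8a1 changed by -1.16 ± 0.30 (adjusted p = 0.044), n264567 in Sgcd by -0.78 ± 0.20 (adjusted p = 0.0394), n287832 in 1810013L24Rik by -1.01 ± 0.26 (adjusted p = 0.047) and n270897 in Myh7 by -0.67 ± 0.15 (adjusted p = 0.0171). No host of the 7 was called. The call was lost in 6 of 19 refits for n293767, in 8 of 19 each for n289141 and n264567 and in 10 of 19 for n287832. For n293767, n289141 and n287832 the fit without the libraries against their sex label was among them. No member was higher in 10 of the 12 fits that left out 1 library, those without 6-week replicate 1, 3, 4 or 5 or any of the 6 at 16 weeks. Between 1 and 8 were lower, with 1 without 6-week replicate 4 or 16-week replicate 4, 2 without 6-week replicate 5 or 16-week replicate 1 or 3, and 3 without 16-week replicate 6.

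Relative to the host, 3 of 168 rose and 7 fell between 6 and 16 weeks, beside 1.15% and 3.0% of 434; 3 fell without 6-week replicate 4 or 16-week replicate 3, and 4 without 6-week replicate 2 or 5. n416530, opposite Trdn, was not called (0.13 ± 0.11, adjusted p = 0.624) while Trdn changed by -0.88 ± 0.20, so the ratio rose by 1.06 ± 0.21 (adjusted p = 0.00294).

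After TAC the members that were called were nearly all lower. Of 1008 members tested, 11 rose and 502 fell, beside 19.6% and 18.4% of 14555 features, and their median log2 change was -0.74, where that of all features was 0.00. Among the hosts both directions were common: 609 of 3436 rose and 678 fell, with a median of -0.02. Other NONCODE features lay between, with 39 higher and 318 lower of 1088 that overlap a coding exon (median -0.34) and 57 higher and 205 lower of 798 outside coding spans (-0.27). Without the libraries against their sex label, 13 rose and 445 fell. TAC and sham libraries did not overlap for 39.4% of members tested, beside 37.1% of all features. The largest changes named below were picked among members without overlap.

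By position and structure of the member, the counts were as follows. On the host's strand 443 of 876 fell (median -0.76), and on the other strand 59 of 132 (-0.52); with a single exon 400 of 807 fell (-0.74), and with several exons 102 of 201 (-0.73). Of the 27 tested that do not lie inside 1 intron, 8 fell and 3 rose (-0.35). Within 100 bases of a coding exon 14 of 41 fell and 1 rose (-0.47), and over 10000 bases away 185 of 287 fell and 1 rose (-1.0). By level, 250 of 558 members under 2 CPM fell, 181 of 337 at 2 to 5 CPM and 71 of 113 at 5 CPM or more. Differences between these classes were not tested.

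**Figure D4:**
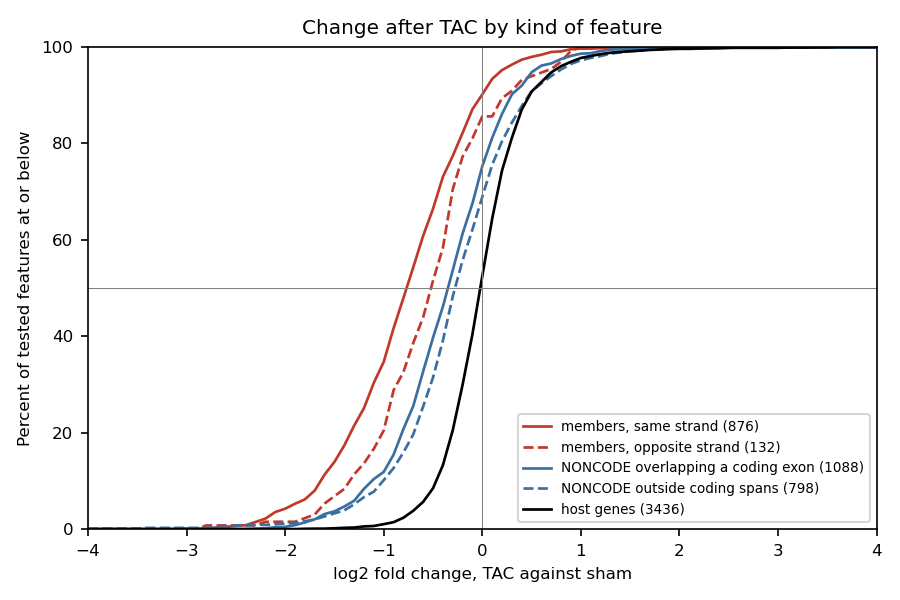
Percent of tested features with a log2 change after TAC at or below the value on the horizontal axis, for members on the host's strand and on the opposite strand, other NONCODE features and host genes, with the number tested in brackets. Of members on the host's strand 90.2% lie at or below 0 and 34.7% at or below -1, against 52.5% and 1.02% of the hosts.

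n276638 (chr2:55335930-55339013), in intron 4 of 4 of Kcnj3 (a G protein-gated potassium channel), stood at 1.66, 1.84, 1.52 and 2.53 CPM in sham libraries and at 0.116, 0.223, 0.333 and 0.240 in TAC libraries. It fell by 3.09 on the log2 scale (-3.09 ± 0.40, adjusted p = 3.1e-05) without overlap, and Kcnj3 changed by -1.13 ± 0.12. n270475 in Kcnd3, a channel of the transient outward potassium current, stood at 2.22, 1.49, 2.89 and 1.32 in sham and 0.346, 0.335, 0.554 and 0 in TAC libraries, a change of -2.66 ± 0.48 (adjusted p = 0.000496) beside -0.46 ± 0.10 for its host. n286883 in Slc16a10, an aromatic amino acid transporter gene, stood at 2.33, 2.52, 1.37 and 2.03 against 0.231, 0.223, 0.444 and 0.359, a change of -2.78 ± 0.37 (adjusted p = 4.08e-05) beside -0.76 ± 0.10.

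Intron 3 of Atp2a2, the gene of the calcium pump SERCA2, holds a pair of them. n279327 (chr5:122946167-122948017) stood at 11.5, 9.17, 11.4 and 11.5 CPM in sham and 1.62, 2.01, 1.55 and 2.75 in TAC libraries (-2.56 ± 0.19, adjusted p = 1.87e-07). n286265 (chr5:122942030-122944917) stood at 6.21, 6.19, 6.24 and 6.89 in sham and 1.155, 1.004, 0.998 and 1.92 in TAC libraries (-2.43 ± 0.23, adjusted p = 1.63e-06). Neither overlapped between the groups, and both were also lower at E13.5 than in unoperated adults, by -2.77 ± 0.21 and -2.25 ± 0.23. Atp2a2 itself has no exonic base outside other features and held no count.

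Several fell without a called change of the host. n288492 (chr7:119938582-119942113) in Tead1, a transcription factor of the Hippo pathway, stood at 3.77, 4.59, 3.50 and 3.35 CPM in sham and 1.04, 0.446, 1.33 and 0.838 in TAC libraries (-2.14 ± 0.29, adjusted p = 4.57e-05), beside 0.04 ± 0.09 for Tead1. n269930 in Synpo2, an actin-binding Z disc protein gene, stood at 2.89, 2.18, 3.50 and 2.74 against 0.462, 0.446, 0.998 and 0.838 (-2.10 ± 0.32, adjusted p = 0.00012), beside 0.06 ± 0.07. n290888 in Idh2, mitochondrial isocitrate dehydrogenase, stood at 6.88, 8.26, 7.31 and 8.01 against 2.54, 3.13, 2.77 and 3.95 (-1.40 ± 0.18, adjusted p = 3e-05), beside -0.01 ± 0.07. In each case the TAC libraries lay below all sham libraries.

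Others fell with a called change of the host. n281209 in Dgat2, an enzyme of triglyceride synthesis, stood at 11.7, 8.83, 8.67 and 14.5 CPM in sham and 2.19, 3.01, 1.77 and 2.52 in TAC libraries (-2.31 ± 0.21, adjusted p = 1.51e-06), beside -0.54 ± 0.10 for Dgat2. n295438 in Mylk4 stood at 8.20, 9.49, 6.87 and 5.87 in TAC libraries, below all sham values given above (-1.31 ± 0.15, adjusted p = 9.72e-06), and Mylk4 changed by -1.49 ± 0.12. n265714 in Ryr2 stood at 67.2, 57.7, 61.9 and 71.4 in sham and 25.9, 24.3, 32.3 and 27.9 in TAC libraries (-1.33 ± 0.10, adjusted p = 1.4e-07), beside -0.62 ± 0.07 for Ryr2. n268169 in the laminin gene Lamc1 stood at 2.44, 2.52, 2.89 and 2.03 against 0.808, 0.670, 1.44 and 1.08 (-1.38 ± 0.29, adjusted p = 0.00176), while Lamc1 rose by 0.19 ± 0.07 (adjusted p = 0.0369).

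A pair of stress-response hosts rose without their member. Myh7, a gene of the fetal programme, went from 459 ± 2.31 CPM in sham to 2682 ± 935 in TAC hearts (SD, n = 4 each) and rose by 2.44 ± 0.29. Its member n270897 (chr14:55590745-55591524), in intron 35 of 37 and 1 base from a coding exon, stood at 17.5, 20.3, 18.4 and 17.9 in sham and 12.2, 13.1, 10.98 and 11.1 in TAC libraries (-0.75 ± 0.11, adjusted p = 0.000113), so the ratio to the host changed by -3.10 ± 0.19 (adjusted p = 6.88e-14, limma). Rcan1, a target of calcineurin signalling, rose by 1.85 ± 0.13, while n266046 in its intron 1 stood at 2.55, 2.87, 2.59 and 2.43 against 3.12, 1.90, 2.66 and 2.52 (-0.13 ± 0.23, adjusted p = 0.677).

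Of the 11 that rose, the largest change was that of n271858 (chr2:73467298-73705967), with 4 exons reaching past Chn1, a Rac GTPase-activating protein gene. It stood at 2.89, 2.29, 2.44 and 2.94 CPM in sham and 5.54, 8.93, 7.32 and 7.90 in TAC libraries (1.38 ± 0.20, adjusted p = 7.58e-05), beside 0.02 ± 0.10 for Chn1. n419891 in Trp53i11, a p53-inducible gene, stood at 4.88, 4.36, 2.28 and 3.75 against 9.24, 11.2, 6.21 and 10.2 (1.14 ± 0.22, adjusted p = 0.000782), and its host rose by 1.14 ± 0.15. n278706 in Mxra7 stood at 7.66, 8.37, 5.48 and 7.70 against 17.1, 16.6, 12.6 and 15.7 (0.97 ± 0.15, adjusted p = 0.000131), and its host rose by 0.75 ± 0.12. Each of these had all TAC libraries above all sham libraries, which the rule for naming the largest changes asked for.

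n278051 in Tmcc1, high in the embryo, also rose after TAC. It stood at 4.77, 5.62, 3.81 and 4.46 CPM in sham and 8.66, 8.93, 9.65 and 8.86 in TAC libraries (0.84 ± 0.16, adjusted p = 0.000632), while Tmcc1 fell by 0.43 ± 0.08. n280819 opposite Dhx32 stood at 45.3, 38.0, 39.9 and 50.8 against 74.8, 109.8, 56.0 and 78.2 (0.77 ± 0.20, adjusted p = 0.0164; 0.051 without sham replicate 2), with no overlap. The embryonic and the TAC comparison with sham share the sham libraries.

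**Figure D5:**
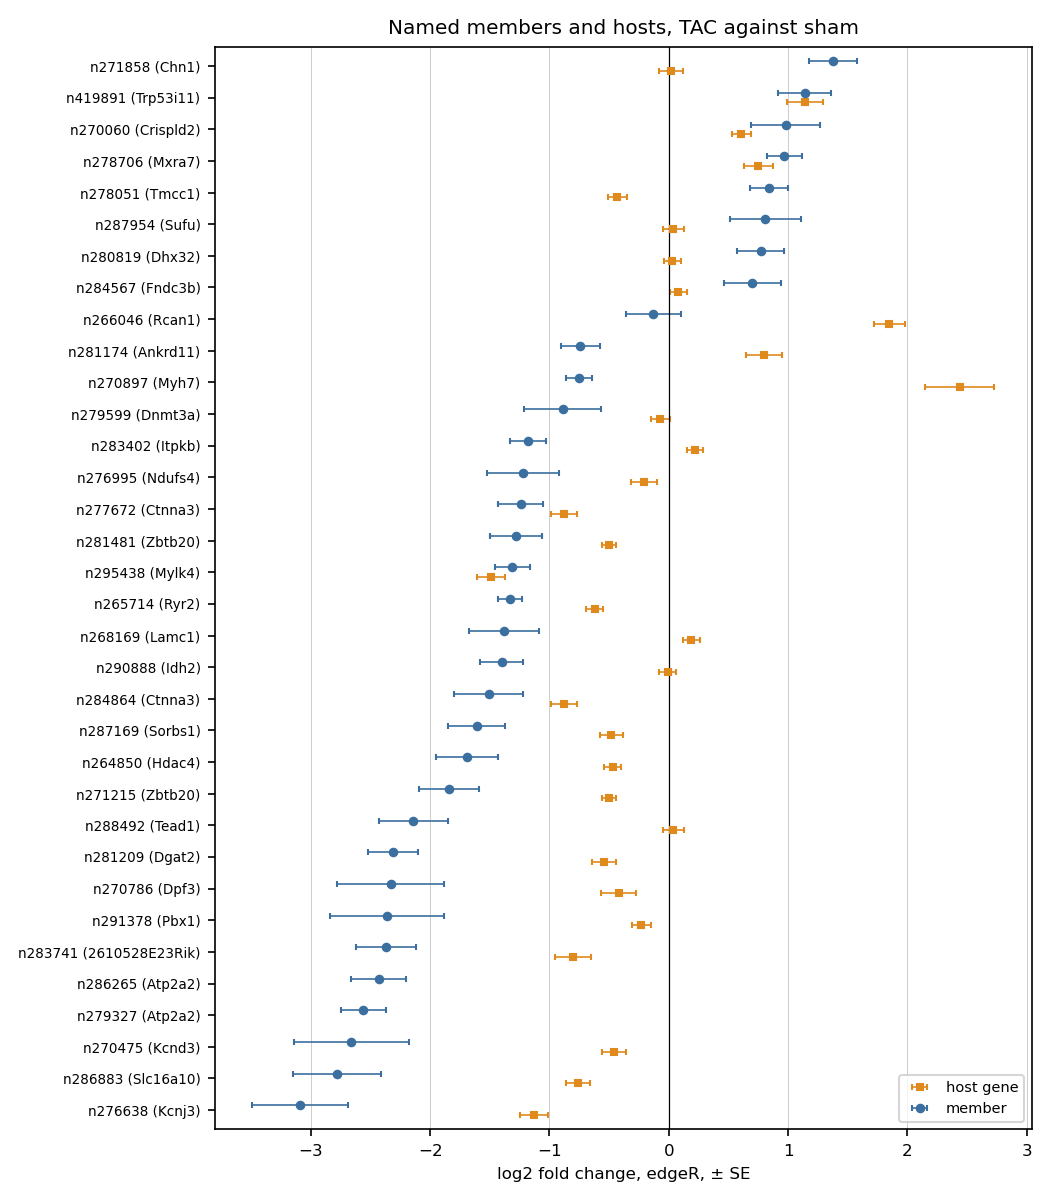
Log2 fold change after TAC against sham for the named members (circles) and their hosts (squares), with SE. Most members stand left of 0 and left of their host, as n288492 (-2.14 ± 0.29) does beside Tead1 (0.04 ± 0.09).

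Some hosts had several members tested after TAC. In Rora, a nuclear receptor gene of the clock, 11 of 12 fell (-2.59 to -0.67, median -1.61), beside -0.49 ± 0.15 for the host. In Cacna1c, the pore subunit of the L-type calcium channel, 10 of 10 fell (-1.69 to -0.94, median -1.39), beside -0.19 ± 0.07. Of the members assigned to Lrrtm3, a synaptic membrane protein gene, 7 of 7 fell (median -1.30), beside -0.62 ± 0.32 for the host (adjusted p = 0.136). In Prkce, a protein kinase C gene, 5 of 5 fell (median -1.26), beside -0.42 ± 0.14. In Pitpnc1, a phospholipid transfer protein gene, none of 8 was called (median -0.48). Members of a host share its locus and are not independent. A member that overlaps several coding genes was set beside 1 of them only, and the others were not tested as its host.

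Relative to the host, 7 of 976 members rose and 446 fell, beside 1.80% and 36.8% of the 1941 NONCODE features tested, which include the members. Without sham replicate 1 or 2, 11 or 12 rose. Without the libraries against their sex label 264 of 1128 fell. Of the 502 members that fell, 163 had a host that fell, 58 a host that rose, 269 a host that was not called and 12 an untested one. The Pearson correlation of member and host changes was 0.32 over 976 pairs with 716 hosts, which share libraries.

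After TAC 49.8% of all members tested fell and 1.09% rose, beside which the lists of hosts by role are read. Members fell in 11 of 16 cases in contraction and Z disc genes, 28 of 42 in channel and calcium handling genes, 24 of 43 in heart development and transcription factor genes, 8 of 10 in energy metabolism genes, 4 of 7 in matrix and adhesion genes and 2 of 5 in cell cycle and chromatin genes. Over each whole list, also where no member was tested, 25 of 46 matrix hosts were higher and 6 lower (median 0.53). In the other lists more hosts were lower than higher. Higher and lower were 4 and 8 of 18 contraction hosts, 2 and 12 of 30 channel hosts and 6 and 15 of 43 transcription factor hosts. In energy metabolism they were 1 and 9 of 21, and in cell cycle and chromatin genes 2 and 5 of 28. Relative to their own hosts 1 of the 7 tested matrix members fell and none rose (median -0.52). Beside these changes the 7 fibroblast markers summed to 931 to 995 CPM in sham and 1694 to 2825 in TAC hearts (4 of 7 higher). The 8 atrial markers summed to 330 to 370 and 2648 to 4088 (2 of 4 tested higher, 2 lower). The 6 macrophage markers found summed to 275 to 332 and 380 to 582 (1 of 6 higher), and the 4 neural markers to 10.3 to 13.3 and 5.51 to 7.54 (3 of 3 tested lower). The 13 mitochondrial symbols summed to 17737 to 64422 CPM in sham and 13481 to 19453 in TAC libraries. The part of these in the members' change was not tested.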

How the data were processed

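The deposited files hold raw counts per feature for 27 libraries, made by the authors; the 27 sample files equalled the series table. Bowtie, TopHat 1.3.0, HTSeq, DESeq and edgeR are named in the submitters' processing notes with no role or order, and the build is mm9 (NCBIM37), per the submitters' processing notes. The counting mode is not given in the sources used here. Positions, strand and host came from the deposited annotation, and 1 NONCODE feature is not reported here.

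Each comparison was fitted on its own groups over all features with edgeR 4.0.16 (R 4.3.3): expression filter (minimum count 10, minimum total 15), TMM, quasi-likelihood test, Benjamini-Hochberg adjusted p under 0.05. The ratio of a member to its host was tested with limma 3.58.1 on log2 CPM (prior count 2), one filter for both. CPM are counts scaled to the library total with TMM factors. Counts of 0 were bounded against 3 counts over the group, and 1 to 3 counts were given a 95% interval of counting error. Lists of hosts and the members were chosen with earlier results of these data known. Named members were the called ones with the largest change in each direction (8 for E13.5 against unoperated adults and for TAC, 4 otherwise) with a mean of at least 1 CPM and groups that did not overlap, the 8 highest levels, the 4 highest per length, up to 3 per host list and up to 4 by ratio to host; n265259, n269347 and n287832 were named after their values were seen. The scripts were tested on simulated data. Alternatives were RLE scaling, DESeq2 1.42.0, no or another filter, a 2-fold threshold, a replicate block, embryonic libraries thinned to the depth of the unoperated adults, other references and each library left out; fits without the libraries against their sex label for the ratio, and unpaired fits on the libraries of the block, were chosen after seeing the data. Figures used Python 3.11.15, pandas 2.3.3 and matplotlib 3.10.9.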

Additional observations from a re-analysis of the deposited data

Results flagged for a closer look

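Within groups of 4 to 7 libraries, 12 of 131 groups of values scanned, over 38 members and their summed levels, held a library far from the others by Dixon's 95% limit, where chance flags about 1 in 20 groups. n265082 opposite Zc3h7a reached 1523 CPM in E13.5 replicate 2, with the other 6 embryonic libraries at 388.3 to 840.1. n282404 in Casc1 reached 216.3 CPM in TAC replicate 2, with the others at 124.2 to 139.1. n279722 in Wwp2 stood at 1.583 CPM in 6-week replicate 5, with the others at 4.846 to 6.799. n265259 opposite Camk2b stood at 6.211 CPM in 6-week replicate 6, with the others at 0 to 1.889. n289141 in Slc8a1 stood at 3.784 CPM in sham replicate 2, with the others at 0 to 0.1014.

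Both members in Atp2a2 had such a library. n279327 stood at 9.173 CPM in sham replicate 2, with the others at 11.41 to 11.54. n286265 stood at 6.892 in sham replicate 4, with the others at 6.191 to 6.24, and at 1.916 in the TAC library labelled female, with the others at 0.9979 to 1.155.

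The remaining cases are single libraries with 1 or 2 counts where all others of the group had none: n280030 in Kcnq5 at 0.1147 CPM in sham replicate 2, n275335 in Cdh11 at 0.4362 in 6-week replicate 3 and 0.902 in 16-week replicate 4, and n295438 in Mylk4 at 0.08749 in E13.5 replicate 5.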

How the results depend on the processing

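Members called higher and lower at E13.5 against unoperated adults (230 and 117) were 2147 and 641 with no filter, 757 and 274 with a filter of at least 1 CPM, 572 and 275 against 6 weeks alone, 650 and 207 against 16 weeks alone, and 135 and 68 past a 2-fold threshold. Against sham (1011 and 490) they were 1754 and 1223 with no filter. Between 16 and 6 weeks (1 and 6) they were 2 and 23 with no filter, 2 and 10 with the 1 CPM filter, 3 higher by DESeq2 and 3 lower past 2-fold. After TAC (11 and 502) they were 17 and 962 with no filter and 2 and 325 past 2-fold. Without the libraries against their sex label 276 of 530 members rose and 129 fell against unoperated adults. Against sham 1036 of 3026 then rose and 492 fell, and by age 1 of 184 rose and 7 fell. Relative to the host, 264 in place of 446 fell after TAC without the libraries against their sex label. Leaving out 1 library gave 194 to 269 higher and 112 to 132 lower against unoperated adults, 948 to 1048 and 452 to 498 against sham, 0 to 2 and 1 to 8 by age, and 8 to 13 and 442 to 544 after TAC. For the ratio to the host these were 164 to 228 and 39 to 55, 886 to 1022 and 347 to 415, 2 to 3 and 3 to 10, and 5 to 12 and 404 to 501.

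Replicate numbers did not pair the libraries: over 25 pairs the correlations of same-numbered libraries ran from -0.058 to 0.126, and the own number was highest for 3. With the replicate block, 9 members rose and 373 fell after TAC, against 414 lower in the same libraries unpaired. Of 105 results for named members, 15 lost their call in some of 2075 refits, 88 in all, and none of these refits reversed: by age those of n264567, n293767, n289141, n265259, n269347 and n287832 and the ratio of n289279, after TAC those of n280819, n276995, n270060, n287954, n284567 and n279599, and at E13.5 those of n290888 and n265082. Without the libraries against their sex label the calls of n270060, n287954 and n284567 after TAC were lost, as was that of the ratio of n289279 by age. Between the 2 ages 182 members were tested, 562 with the 1 CPM filter and 7287 with no filter, at 2092270 to 2682955 counts a library. The causes of these moves were not tested.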
